A study of Mus musculus with 19 samples.

Results

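The genes examined here are the transcription factors Creb1, Crem and Atf1, the coactivators Crtc1, Crtc2 and Crtc3, and the salt-inducible kinases Sik1, Sik2 and Sik3. They were taken by gene name from the expression files, and all 9 were found among the 24058 gene names used. CREB, the product of Creb1, binds cAMP-response elements in promoters, and Atf1 and Crem encode its closest relatives. Crem also has an internal promoter from which ICER, a short repressor isoform, is made. Synaptic activity and cAMP act on this group in 2 ways: kinases phosphorylate CREB itself, and calcineurin together with a block of the SIK kinases releases the CRTC proteins to enter the nucleus and bind CREB. Sik1 and the ICER form of Crem are themselves known CREB targets, and both feed back on the pathway.

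All samples were mouse hippocampal neurons prepared at embryonic day 17 (E17) and kept for 10 days in vitro (DIV). They were left untreated, silenced with the sodium-channel blocker tetrodotoxin (TTX), or driven for 3 h with bicuculline and 4-aminopyridine (Bic/4AP), which block GABA-A receptors and voltage-gated potassium channels. RNA-seq covered the 3 treatments with 3 libraries each, H3K27ac ChIP-seq covered untreated and Bic/4AP cultures with 2 peak lists each, H3K4me1 covered untreated cultures with 2 lists, and bisulfite sequencing gave 1 library per treatment. RNA and chromatin came from ICR mice and bisulfite DNA from C57BL/6 mice; the labels give no genotype or transgene and no duration of TTX. They do not say whether the 3 libraries of a treatment are independent cultures, and the p-values then speak of library-to-library spread, which may be technical.

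The expression files hold RPKM, read numbers scaled to the length of the gene model and to library size. The library sizes recovered from the steps between RPKM values spanned 9.678 to 12.644 M reads with TTX, 5.634 to 9.974 M in untreated cultures and 4.339 to 4.59 M after Bic/4AP. The members were covered by 54 reads (Crtc2 with Bic/4AP) to 2658 reads (Crtc1 with TTX) per library. The 12 neuron markers summed to 769.4 to 852.7 RPKM with TTX, 778.3 to 909.5 RPKM untreated and 1246 to 1277 RPKM with Bic/4AP, where 11 of 12 were called higher than untreated on deposited values; that direction rests on the scaling, with 5 higher and 3 lower after quantile normalization and 4 higher and 7 lower after cyclic loess. Astrocyte markers summed to 131.3 to 140.7 RPKM untreated, 169.3 to 190.3 RPKM with TTX and 192.3 to 221.1 RPKM with Bic/4AP. Oligodendrocyte lineage markers stood highest with TTX, at 42.96 to 52.14 RPKM, against 23 to 29.7 RPKM untreated and 22.18 to 28.69 RPKM with Bic/4AP. Vascular and mural markers summed to 31.41 to 50.96 RPKM and microglia markers to 7.303 to 13.15 RPKM over all libraries. The untreated libraries stood apart in 10 choroid plexus markers, which summed to 437.9 to 654 RPKM there, to 21.68 to 28.7 RPKM with TTX and to 37.87 to 43 RPKM with Bic/4AP, and all 10 were called lower in both treatments than untreated. The part of these markers' cells in the comparisons was not tested, and Bic/4AP against TTX is the comparison without the untreated libraries. In that comparison 4 of 6 oligodendrocyte lineage markers tested were called lower and 0 higher, on deposited values. Of all genes tested, 53.1% were called lower there and 23.7% higher. Quantile and loess scaling each gave 1 higher and 2 lower for this set. On deposited values, choroid plexus markers gave 4 higher and 2 lower of 10, and vascular and mural markers 2 and 4 of 6. Neuron markers gave 8 and 1 of 12, astrocyte markers 3 and 4 of 9, and microglia markers 0 and 2 of 5. Both scalings changed the counts of every set, with choroid plexus markers at 5 and 1 after quantile and 7 and 1 after loess. In bulk RNA, fewer cells of a type and less RNA per cell cannot be told apart.

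Changes are given as log2(RPKM + 1) differences relative to the median gene of the same comparison, since that median lay at -0.12 for Bic/4AP against untreated, 0.13 for TTX against untreated and -0.33 for Bic/4AP against TTX. The shift depended on level. By decile of mean level, the median change ran from -0.546 (decile 4) to 0.438 (decile 10) for Bic/4AP against untreated. For Bic/4AP against TTX it ran from -0.893 to 0.49 in the same deciles. Relative to its own decile, Bic/4AP against untreated gave Crem 1.73, Sik1 1.73, Sik2 1.29 and Atf1 0.539. Sik3 stood at 0.196, Creb1 at -0.145, Crtc3 at -0.245, Crtc1 at -0.892 and Crtc2 at -0.977. A gene was called higher or lower on the deposited values with limma, at a Benjamini-Hochberg adjusted p of 0.05 over 14801 genes tested. The p-value tests the deposited difference, before the median is taken off, so it can disagree with the relative value beside it where the change is small. All 9 members passed the filter on low values.

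Promoters are shown first for a pair of the kinase genes and for 1 coactivator gene, because Sik2 and Sik3 hold more than 1 copy of the core letters of the cAMP-response element near their start sites and Crtc1 holds none, and because H3K27ac was read at these start sites. Each sequence runs 5′ to 3′ on the strand of the gene, from 250 bases before the RefSeq start site to 50 bases from the start onwards (GRCm38.p6, the build the files call mm10). Capitals mark TGACG or its complement CGTCA.
Sik2, chr9:51009024-51009323, minus strand: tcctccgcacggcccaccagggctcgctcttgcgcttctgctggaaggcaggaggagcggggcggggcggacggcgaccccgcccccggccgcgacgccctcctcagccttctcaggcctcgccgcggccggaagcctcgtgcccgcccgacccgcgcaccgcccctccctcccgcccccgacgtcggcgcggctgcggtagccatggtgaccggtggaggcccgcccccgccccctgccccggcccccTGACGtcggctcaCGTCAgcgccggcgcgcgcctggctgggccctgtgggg
Sik3, chr9:46012570-46012869, plus strand: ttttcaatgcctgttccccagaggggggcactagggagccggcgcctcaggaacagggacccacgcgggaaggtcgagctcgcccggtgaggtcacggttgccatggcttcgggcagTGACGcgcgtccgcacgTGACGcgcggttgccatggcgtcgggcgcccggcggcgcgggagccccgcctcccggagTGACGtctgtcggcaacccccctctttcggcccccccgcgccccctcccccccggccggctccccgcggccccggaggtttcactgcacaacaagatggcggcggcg
Crtc1, chr8:70439524-70439823, minus strand: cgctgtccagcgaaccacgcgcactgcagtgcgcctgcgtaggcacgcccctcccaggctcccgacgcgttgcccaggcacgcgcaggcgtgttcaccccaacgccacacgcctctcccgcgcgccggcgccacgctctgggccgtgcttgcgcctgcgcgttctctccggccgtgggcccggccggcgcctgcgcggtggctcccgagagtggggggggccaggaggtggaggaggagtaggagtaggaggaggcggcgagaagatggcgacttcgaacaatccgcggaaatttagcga

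TGACG was searched on both strands in the 6 member promoters that the RefSeq table holds (Creb1, Atf1, Crtc1, Crtc3, Sik2 and Sik3). Sik3 held 3 copies, with first bases at -133, -116 and -57 from the start, Sik2 held 2, with first bases at -1 and 13, and Atf1 held 1 at -90. Thus 3 of 6 member promoters held the 5 letters, against 21.0% of 27025 promoters of the same length, and 2 of 6 held 2 or more copies, against 5.2%. TGACG itself holds a CpG, and the 6 sequences are rich in them, with 31 to 43 each and 69.0% to 80.0% GC. The 27025 promoters were not matched for composition, so no enrichment can be read from these shares. The full palindrome TGACGTCA was in 0 of 6 and in 1.9% of all promoters. CpG sites inside these windows were almost free of methylation. The mean methylation of the Sik2 window was 0.215% with TTX, 0.455% untreated and 1.495% with Bic/4AP, over 31, 40 and 43 CpG sites, and that of the Crtc1 window was 0.278%, 0% and 0.521% over 40, 31 and 32 sites.

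With Bic/4AP the kinase and coactivator genes moved in opposite directions, and the 3 factors did not move together. Sik1, Sik2, Sik3 and Crem were higher than in untreated cultures, all 3 Crtc genes and Creb1 were lower, and Atf1 was not called. Of the 9 genes, 4 were called higher and 4 lower, where 29.6% of all genes tested were called higher and 42.5% lower. A count of 8 called among 9 is near the share of all genes called in either direction, 72.1%, and so is the count of members whose Bic/4AP and untreated libraries do not overlap, 8 of 9 against 71.3% of genes; the sizes of the changes say more than these counts. Quantile normalization of the libraries moved the split of all genes to 38.8% higher and 30.9% lower, and cyclic loess to 35.8% and 35%. The calls of Sik1, Sik2, Sik3, Crem and the 3 Crtc genes kept their direction under both scalings, and that of Creb1 was lost under both.

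**Figure D1:**
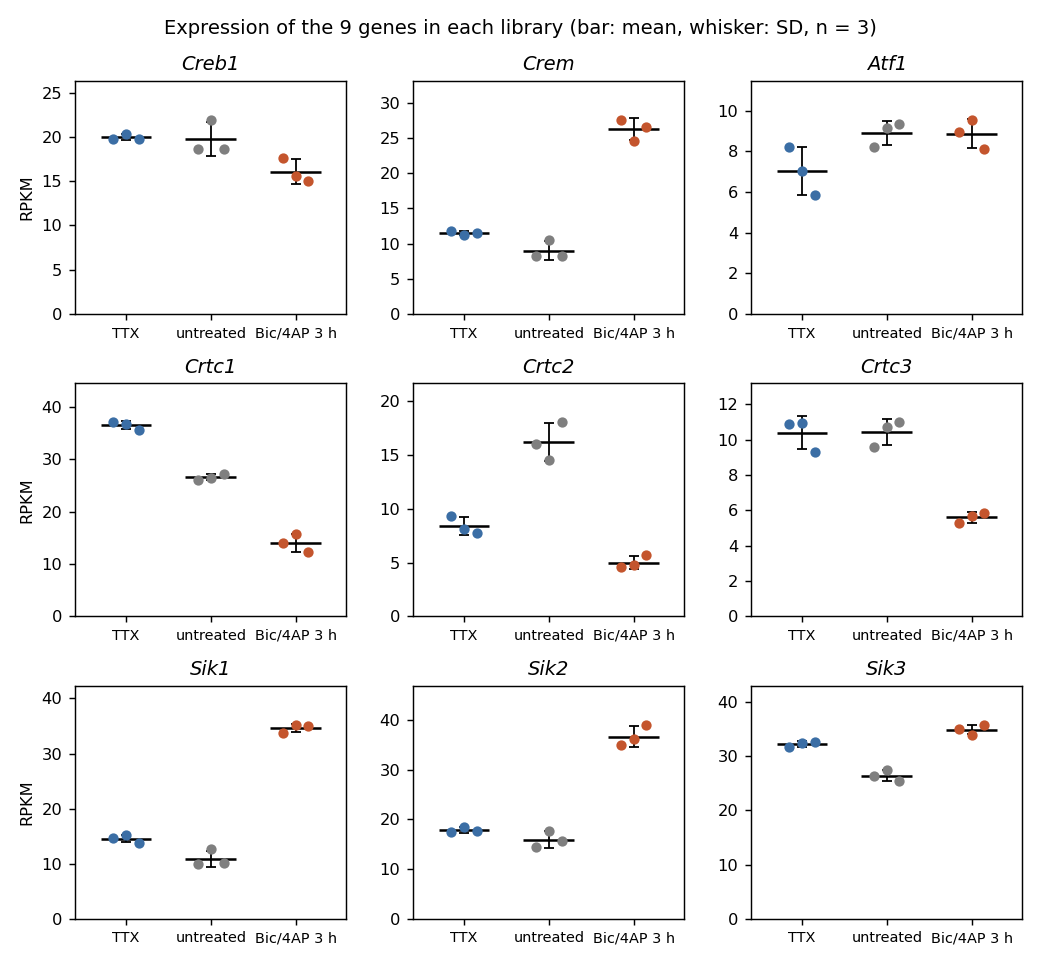
RPKM of each gene in the 9 RNA-seq libraries, 1 panel per gene with its own axis from 0; points are libraries, bars are means and whiskers are SDs (n = 3). Sik1, Sik2 and Crem sit far higher with Bic/4AP than in both other groups, and the Crtc genes sit lowest with Bic/4AP.

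Among the factors, Crem moved most. Its level was 11.8, 11.3 and 11.4 RPKM with TTX, 8.18, 10.6 and 8.27 RPKM untreated, and 27.6, 24.6 and 26.6 RPKM with Bic/4AP. All Bic/4AP libraries lay above all others, and untreated library 2 was the highest of its group. The group means were 26.3 ± 1.5 RPKM with Bic/4AP and 9.01 ± 1.35 RPKM untreated (SD, n = 3 each), a ratio of 2.92. The relative log2 change was 1.58 with a 95% interval from 1.37 to 1.78 (limma, adjusted p = 8.34e-08), and 193 of the 14801 genes had a larger change. A gene-level value adds up the full-length Crem transcripts and the short ICER ones, so the RPKM cannot say which of them rose.

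Creb1, which encodes CREB, read 19.8, 20.3 and 19.7 RPKM with TTX, 18.7, 21.9 and 18.7 RPKM untreated, and 17.6, 15.6 and 14.97 RPKM with Bic/4AP. The Bic/4AP libraries were the 3 lowest, while TTX and untreated libraries overlapped. Creb1 was called lower with Bic/4AP than untreated at a relative log2 change of -0.16 (95% interval -0.33 to 0.02; limma, adjusted p = 0.0074), but the adjusted p was 0.404 after quantile normalization and 0.378 after cyclic loess. Atf1, a CREB relative that pairs with CREB, read 8.22, 7.03 and 5.86 RPKM with TTX, 8.23, 9.13 and 9.35 RPKM untreated, and 8.92, 9.54 and 8.11 RPKM with Bic/4AP. Its untreated and Bic/4AP groups overlapped (deposited log2 difference -0.01, limma adjusted p = 0.962; relative change 0.12), whereas quantile normalization gave a call higher in Bic/4AP at 0.51 and loess at 0.50. The 3 factors summed to 37.7 ± 3.48 RPKM untreated and 51.2 ± 2.54 RPKM with Bic/4AP (SD, n = 3). Crem made up 23.8% ± 1.36 of that sum untreated and 51.3% ± 2.06 with Bic/4AP, and Creb1 went from 52.5% ± 0.897 to 31.4% ± 1.22.

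The Crtc genes encode the coactivators that bind CREB once dephosphorylated. Crtc1, the form most studied in neurons, read 37.1, 36.8 and 35.6 RPKM with TTX, 26.03, 26.5 and 27.1 RPKM untreated, and 13.9, 15.7 and 12.2 RPKM with Bic/4AP. The 3 groups formed 3 separate levels with no overlap, highest with TTX and lowest with Bic/4AP. The relative log2 change with Bic/4AP was -0.76 against untreated (95% interval -0.93 to -0.60; limma, adjusted p = 7.05e-07) and -1.0 against TTX (adjusted p = 3.42e-08). Crtc2, best known from liver, had a different order. It read 9.33, 8.09 and 7.78 RPKM with TTX, 16.0, 14.6 and 18.02 RPKM untreated, and 4.54, 4.72 and 5.70 RPKM with Bic/4AP, so the untreated libraries were the 3 highest. Its relative log2 change with Bic/4AP against untreated was -1.40 (95% interval -1.66 to -1.14; limma, adjusted p = 3.4e-07), the lowest of the 9 genes, and 1335 of the 14801 genes had a lower one. Only 54, 57 and 65 reads stand behind the Bic/4AP values of Crtc2. The choroid plexus markers also stood highest in the untreated libraries, and the part of their cells in the Crtc2 values was not tested.

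Crtc3 read 10.9, 10.96 and 9.30 RPKM with TTX, 9.59, 10.7 and 10.98 RPKM untreated, and 5.28, 5.67 and 5.86 RPKM with Bic/4AP. TTX and untreated libraries overlapped and the Bic/4AP libraries lay below both. The relative log2 change with Bic/4AP against untreated was -0.67 (limma, adjusted p = 3.08e-05), and it was -0.22 after quantile normalization and -0.28 after loess, still called lower. Together the 3 coactivator genes summed to 55.2 ± 2.35 RPKM with TTX, 53.2 ± 2.57 untreated and 24.5 ± 1.34 with Bic/4AP (SD, n = 3). Crtc1 was the most abundant of the 3 in every library, at 66.0% ± 1.44 of the sum in TTX cultures, 49.97% ± 1.45 in untreated ones and 56.8% ± 4.70 after Bic/4AP.

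The Sik kinases phosphorylate CRTC proteins and so hold them in the cytoplasm. Sik1, the inducible member, read 14.6, 15.2 and 13.8 RPKM with TTX, 9.92, 12.6 and 10.1 RPKM untreated, and 33.8, 35.2 and 35.0 RPKM with Bic/4AP. Every Bic/4AP library lay above every other library. Means were 34.7 ± 0.758 RPKM with Bic/4AP and 10.9 ± 1.52 RPKM untreated (SD, n = 3 each), a ratio of 3.19. The relative log2 change of 1.72 (95% interval 1.53 to 1.90; limma, adjusted p = 2.03e-08) was the highest of the 9 genes, and 144 genes of the table had a larger one.

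Sik2 read 17.4, 18.5 and 17.6 RPKM with TTX, 14.5, 17.7 and 15.6 RPKM untreated, and 34.9, 36.1 and 39.0 RPKM with Bic/4AP. TTX and untreated groups overlapped and Bic/4AP lay apart from both. The relative log2 change with Bic/4AP against untreated was 1.28 (95% interval 1.11 to 1.44; limma, adjusted p = 8.07e-08). Sik3, the most abundant of the 3 kinases with TTX and untreated, read 31.7, 32.5 and 32.6 RPKM with TTX, 26.4, 27.5 and 25.4 RPKM untreated, and 35.0, 34.0 and 35.8 RPKM with Bic/4AP. Its groups did not overlap, but the step was small, at a relative log2 change of 0.51 (limma, adjusted p = 2.07e-05). With Bic/4AP the 3 kinases reached nearly equal shares of their sum, 32.6% ± 0.791 for Sik1, 34.5% ± 0.962 for Sik2 and 32.9% ± 0.774 for Sik3, where Sik3 alone had 49.7% ± 2.24 untreated (SD, n = 3). The sum was 53.3 ± 3.96 RPKM untreated and 106 ± 3.19 RPKM with Bic/4AP.

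**Figure D2:**
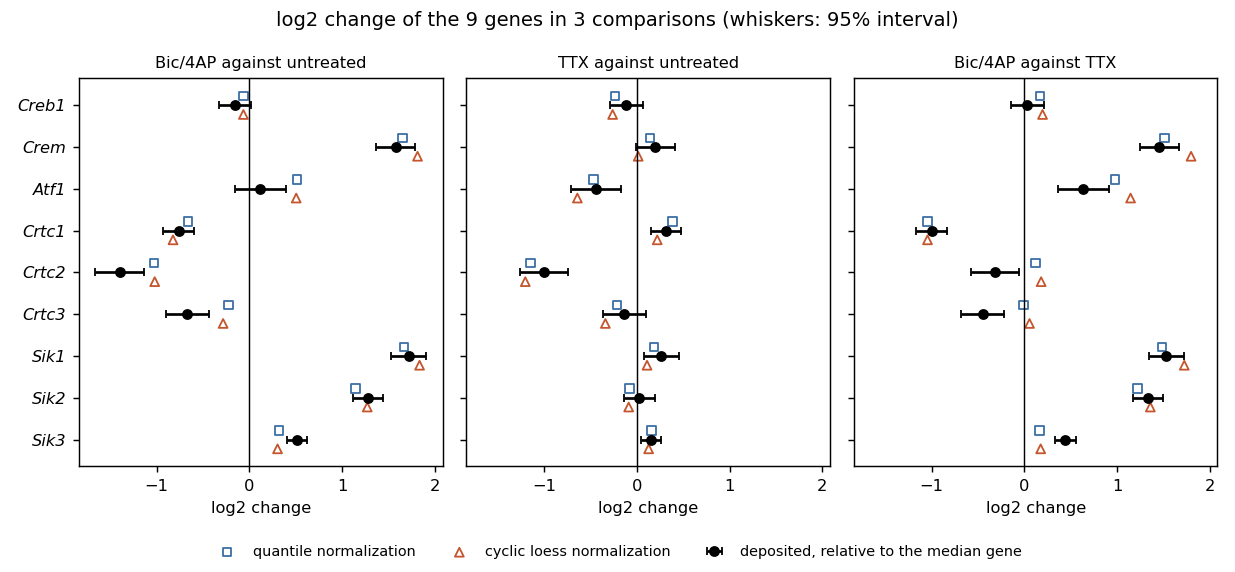
log2 change of the 9 genes in 3 comparisons; black points are deposited values relative to the median gene with 95% intervals from limma, squares and triangles are the changes after quantile and cyclic loess normalization. Sik1, Sik2 and Crem lie beyond 1 in both comparisons with Bic/4AP under every scaling; the points of Crtc2 and Crtc3 cross or reach 0 in Bic/4AP against TTX once libraries are rescaled.

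With TTX against untreated cultures, the relative log2 changes ran from -0.44 to 0.31 except at Crtc2. Crtc2 was lower with TTX as well, at 8.40 ± 0.818 against 16.2 ± 1.74 RPKM (relative log2 change -1.0, 95% interval -1.26 to -0.74; limma, adjusted p = 6.9e-05). Both of its differences are against the untreated libraries, where choroid plexus markers also stood highest. A response of Crtc2 to the drugs cannot be told apart from a difference of those cultures. Crtc1 went the other way, from 26.5 ± 0.562 to 36.5 ± 0.777 RPKM (0.31, limma adjusted p = 0.000327), and both calls held under quantile and loess scaling. Crem (0.20, adjusted p = 0.00927), Sik1 (0.27, adjusted p = 0.00167) and Sik3 (0.15, adjusted p = 0.000452) were called higher with TTX by limma. Of these, Sik3 kept its call under both scalings, Sik1 lost it under loess (adjusted p = 0.137), and Crem lost it under both (0.108 and 0.865). Atf1 was called lower at the edge of the threshold (-0.44, limma adjusted p = 0.0467), a call that ended when any library other than TTX 1 or Bic/4AP 3 was left out (adjusted p from 0.0506 to 0.185). Sik2, Crtc3 and Creb1 were not called, at deposited log2 differences of 0.16, -0.01 and 0.02 (limma, adjusted p = 0.0866, 0.952 and 0.859) and relative changes of 0.03, -0.14 and -0.11. After quantile and loess normalization Sik2 read -0.08 and -0.09, again not called. Quantile and loess scaling called Creb1 lower with TTX at -0.24 and -0.26, and Crtc3 lower at -0.22 and -0.34. In all, 4 of 9 were called higher and 2 lower, where 40.6% of genes tested were called higher and 23.5% lower (37.3% and 31.9% after quantile normalization, 30.8% and 35.4% after loess). The 6 called compare with 64.1% of genes called in either direction, and the 6 members without overlap between TTX and untreated libraries with 69.6%.

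Set directly against TTX, the silenced state, Bic/4AP again had higher Sik1, Crem and Sik2 and lower Crtc1. This comparison shares its Bic/4AP libraries with the first and its TTX libraries with the second, so it is no separate evidence. It leaves out the untreated libraries, where choroid plexus markers stood highest. Every cell type marker set, choroid plexus included, still had genes called between Bic/4AP and TTX, as given above. Sik1 was higher by 1.53 (limma, adjusted p = 1.49e-07), Crem by 1.46 (adjusted p = 5.38e-07) and Sik2 by 1.33 (adjusted p = 2.14e-07), on the relative log2 scale. Atf1 was called higher at 0.64 (limma, adjusted p = 0.0434), a call also made after quantile and loess normalization, at 0.98 and 1.146, but ended by leaving out TTX library 2 or 3 or Bic/4AP library 1 or 2 (adjusted p from 0.0901 to 0.179). Sik3 was not called on its deposited log2 difference of 0.11 (limma, adjusted p = 0.0598), its relative change was 0.44, and it was called higher after quantile (adjusted p = 0.00422) and loess normalization (adjusted p = 0.00213). Crtc2 and Crtc3 were called lower on deposited values, at -0.32 and -0.45 (limma, adjusted p = 0.000322 and 2.78e-05). These 2 calls rest on the scaling: Crtc2 read 0.12 and 0.18 after quantile and loess normalization, Crtc3 -0.01 and 0.06, and none of the 4 values was called. Relative to their decile of mean level, Crtc2 stood at 0.241 and Crtc3 at 0.11. Creb1 was called lower on its deposited log2 difference of -0.30 (limma, adjusted p = 0.00472), although relative to the median gene it stood at 0.03, and both scalings called it higher, at 0.17 and 0.20. The count was 4 higher and 4 lower on deposited values, where 23.7% of genes tested were called higher and 53.1% lower (33.7% and 36.2% after quantile normalization, 34.7% and 35.7% after loess) and 76.8% in either direction. The libraries of the 2 groups did not overlap for 8 of 9 members, against 81.5% of genes tested.

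The genes whose levels followed Crem most closely over the 9 libraries were Egr1, Ghsr, Fezf2 and Heca (Pearson r = 0.996 each) and Fosl2 (r = 0.995), among 4228 candidates with a span of group means of at least 1 log2 unit. For Sik1 they were Igf2bp2 (r = 0.999), Egr1 and Cdk2ap1 (r = 0.998 each), Dusp1 and Heca (r = 0.997 each). Egr1, an immediate-early zinc finger factor, read 19.4 ± 1.85 RPKM with TTX, 11.6 ± 3.87 untreated and 101.1 ± 9.83 with Bic/4AP (SD, n = 3). The 9 points fall into the 3 treatments, so these values of r describe the order of group means rather than libraries within a group.

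Genes that textbooks list as CREB targets moved in 1 direction with Bic/4AP. All 26 of the 27 listed genes that passed the filter on low values were called higher than untreated, with a median relative log2 change of 2.1, where the median of all genes is 0 by construction; Pdyn, which encodes the opioid precursor prodynorphin, did not pass. Over all genes tested 29.6% were called higher. The list was chosen with earlier results of these data known, so its count is no independent evidence on CREB, whose part was not tested. Both rescaled analyses also called 26 of these genes higher. Fosb went from 1.12 ± 0.290 to 108 ± 6.16 RPKM (5.82, limma adjusted p = 2.57e-10), Junb from 7.39 ± 0.688 to 63.5 ± 1.86 RPKM (3.07, adjusted p = 4.47e-10), and Nr4a1, an orphan nuclear receptor, from 12.6 ± 1.09 to 79.8 ± 4.88 RPKM (2.70, adjusted p = 8.86e-10). Fosb and Junb encode AP-1 subunits. Against TTX, 25 of the 26 were called higher on deposited values and 1, Cartpt, was not called. Quantile normalization gave 23 higher and 1 lower, and loess 25 higher and 1 lower; the gene called lower was Sst, which encodes somatostatin, at -0.31 and -0.40 (named here after its values were seen). With TTX against untreated, 18 were called higher and 5 lower (17 and 6 under both scalings), with a median relative log2 change of 0.33.

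The signalling genes upstream did not share a direction, and neither did the genes tested as a whole. Of 30 genes for cAMP and calcium signalling to CREB, 14 were called higher with Bic/4AP than untreated, 11 lower and 5 not. Over all genes tested, 29.6% were called higher and 42.5% lower, so a mix of directions is no trait of this list. Quantile scaling left 8 higher and 9 lower, and loess 8 and 13. Prkar2a, a regulatory subunit of protein kinase A, rose from 29.5 ± 2.19 to 50.5 ± 0.797 RPKM (0.88, limma adjusted p = 2.16e-07). Rps6ka3, the CREB kinase RSK2, rose from 25.0 ± 2.24 to 41.8 ± 1.10 RPKM (0.85, adjusted p = 1.1e-06). Camk4, the nuclear calmodulin kinase that phosphorylates CREB, went from 51.4 ± 0.968 to 73.9 ± 1.73 RPKM (0.64, adjusted p = 1.11e-06), but its adjusted p was 0.0982 after quantile normalization. Among the genes called lower were Camkk1, the kinase that activates CaMKIV, from 44.3 ± 6.70 to 8.39 ± 0.417 RPKM (-2.14, adjusted p = 5.33e-09), the adenylyl cyclase Adcy9 (-1.61, adjusted p = 1.58e-08) and the cAMP phosphodiesterase Pde4a (-0.72, adjusted p = 2.23e-07). Camkk1, Adcy9 and Pde4a were also called lower with TTX than untreated, at -0.95, -1.01 and -0.43 (limma, adjusted p = 2.03e-05, 8.68e-06 and 0.00137). Between Bic/4AP and TTX, Adcy9 lost its call under quantile and loess scaling (adjusted p = 0.303 and 0.188), while Camkk1 and Pde4a kept theirs.

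Of the 5 measured genes for acetyltransferases and adaptors that bind CREB, CRTC or these acetyltransferases, 2 were called higher and 2 lower (1 and 1 under both scalings). Beside this count and that of the bZIP factors below stand the shares over all genes tested, 29.6% higher and 42.5% lower on deposited values. Crebbp, which encodes the CREB-binding protein CBP, fell from 32.9 ± 1.55 to 22.3 ± 0.373 RPKM (-0.42, limma adjusted p = 2.94e-06). Its relative Ep300 was called lower at -0.19 (adjusted p = 0.00139) and lost that call under quantile and loess scaling (adjusted p = 0.0531 and 0.0502). Cited2, a competitor for the same acetyltransferases, rose from 39.8 ± 1.28 to 84.1 ± 0.657 RPKM (1.18, adjusted p = 1.77e-08). Nono, which bridges CRTC proteins to RNA polymerase II, was called higher at 0.47 (adjusted p = 0.000194) on deposited values and read 0.00 under both scalings. Among 13 other bZIP factors of the CREB and ATF families, 5 were called higher and 5 lower (8 and 4 after quantile normalization, 8 and 3 after loess), with the stress-inducible Atf3 furthest, from 3.44 ± 1.36 to 38.9 ± 8.86 RPKM (3.31, adjusted p = 4.83e-08). Atf4, the effector of the integrated stress response, rose by 0.98 (adjusted p = 3.82e-07) and Atf2 by 0.45 (adjusted p = 0.000166). Lower were Atf7 (-0.95), Crebl2 (-0.94) and Atf6b (-0.71), at adjusted p of 8.84e-06, 1.3e-05 and 2.89e-07.

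The Sik kinases belong to the AMPK-related family, whose members are activated by the kinase LKB1. Of 11 other AMPK-related kinases, 1 was called higher with Bic/4AP than untreated and 5 lower, where 29.6% and 42.5% of all genes tested were; the count called lower is near that share. Quantile normalization gave 2 higher and 4 lower, and loess 1 and 5. The catalytic AMPK subunit gene Prkaa2 was the 1 called higher (0.49, limma adjusted p = 0.000101). The microtubule-affinity kinases Mark4 (-1.0, adjusted p = 1.12e-07) and Mark2 (-0.61, adjusted p = 8.43e-07) and the polarity kinase Brsk2 (-0.86, adjusted p = 8.37e-08) were lower.

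**Figure D3:**
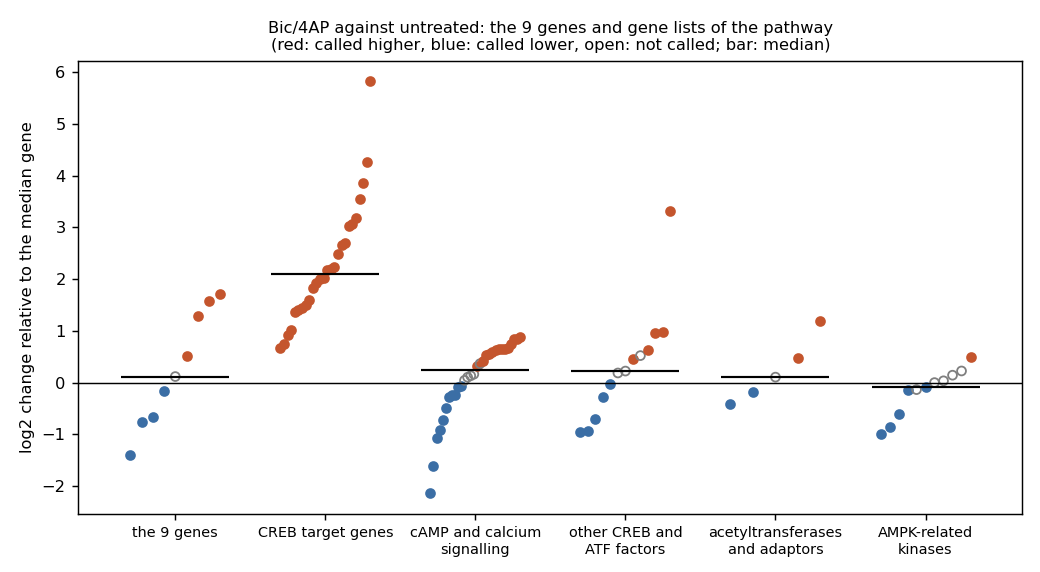
Relative log2 change, Bic/4AP against untreated, of the 9 genes and of every gene tested in 5 lists; each point is a gene, red called higher, blue called lower, open not called, and the bar is the list's median. All 26 CREB target genes lie above 0 with a median of 2.1, while the other lists spread to both sides. The lists were chosen with earlier results of these data known.

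H3K27ac marks active promoters and enhancers. The authors' peak lists differ widely in size: list 1 holds 4846 peaks untreated and 7721 with Bic/4AP, and list 2 holds 49701 and 55035, so absence from a list 1 says little. The authors' score per peak is used only within a list. Within 1 kb of the start site, 4 of 9 members had a peak in untreated list 1, 8 in Bic/4AP list 1, 6 in untreated list 2 and 9 in Bic/4AP list 2. Among 10676 promoters of genes tested in the RNA, those shares were 14.3%, 31.5%, 42.4% and 55.2%. Crem, Crtc2 and Sik1 are not among these promoters, since the RefSeq promoter set lacks them. Creb1, Crem, Atf1 and Crtc3 had a peak in all 4 lists, against 12.2% of these promoters. Sik3 lacked one in untreated list 1 alone, and Crtc1 had one in both lists 2 and in neither list 1.

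Crtc2, Sik1 and Sik2 had a promoter peak in both Bic/4AP lists and in neither untreated list, which held for 4.08% of the promoters of genes tested. Of these genes only Sik2 is among those promoters, because the other start sites were taken as annotated gene ends. The RNA of Sik1 and Sik2 rose with Bic/4AP and that of Crtc2 fell; of the 436 genes with this peak pattern, 36.2% were called higher and 37.8% lower. At Sik1 the Bic/4AP list 2 had peaks from -3.87 to -0.10 kb (score 1581.71, above 94.4% of its list) and from -0.06 to 1.17 kb (score 458.36), and Bic/4AP list 1 had one from -0.06 to 1.08 kb (score 65.09). Untreated list 2 held a peak just outside the window, from -1.69 to -1.04 kb (score 74.13), so Sik1 leaves the group when the window is 2.5 kb. At Sik2 the start-site peak ran from -0.02 to 2.05 kb in Bic/4AP list 2 (score 1102.32) and from -0.06 to 1.42 kb in list 1 (score 146.62), over the last bases of the sequence shown above; a further Bic/4AP list 2 peak from -1.94 to -0.02 kb (score 342.37) covers the rest of it. The Crtc2 peaks were weak, with scores of 52.53 in list 1 and 118.9 in list 2. Slc39a1 is annotated close to the Crtc2 start, so these peaks cannot be given to Crtc2 alone. At a score of 100 or more in every list, Sik2 alone kept the pattern.

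Away from the start sites, the loci differed. Crem had a second region 54.58 to 58.82 kb into the gene, in Bic/4AP list 2, with a score of 3100 that exceeded 98.1% of that list. The same place held 2 narrower peaks in untreated list 2, from 56.20 to 57.44 kb (score 217.71) and from 57.58 to 58.10 kb (score 64.19), one in Bic/4AP list 1 from 55.14 to 57.54 kb (score 233.03) and none in untreated list 1. Between the lists 2, the bases covered by peaks at Crem were 7960 with Bic/4AP and 3176 untreated, a ratio of 2.51, where all peaks of those lists gave 1.21. The ratio was 8.64 at Sik1, 8.22 at Atf1, 4.39 at Creb1, 3.07 at Sik3 and 1.46 at Crtc3, and Crtc2 had peaks with Bic/4AP only. The Sik1 ratio divides by 1 untreated peak of 643 bases. The spread of this ratio over other loci was not computed, so how unusual any of these values is cannot be said. Between the lists 1 all peaks gave a ratio of 3.28. There Sik3 (6.86), Crem (5.16) and Atf1 (3.79) lay above that value, while Crtc3 (3.11) and Creb1 (2.94) lay below it. Sik1, Sik2 and Crtc2 had 1136, 2277 and 1066 covered bases with Bic/4AP in lists 1 and 0 untreated, and Crtc1 had none in either.

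Between the lists 2 the ratio was below 1 at 2 loci, Crtc1 and Sik2. At Crtc1, whose RNA fell, covered bases were 733 with Bic/4AP against 3924 untreated (ratio 0.187), because an untreated list 2 peak from 20.62 to 23.52 kb (score 864.15) had no counterpart. H3K4me1, a mark of enhancers, had 3 peaks inside that stretch in 1 of its untreated lists. At Sik2, whose RNA rose, the ratio was 0.437 between the lists 2, opposite to the lists 1: untreated list 2 had peaks from 32.76 to 36.80 kb (score 1617.11), 38.21 to 40.68 kb (score 737.79) and 40.74 to 42.11 kb (score 212.65), and neither Bic/4AP list had one there. Each of these rests on 1 list, since untreated list 1 held none of them. At the far side of Crtc2 a peak from 11.21 to 12.54 kb with Bic/4AP lies beyond the end of the gene and within 2 kb of Dennd4b.

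**Figure D4:**
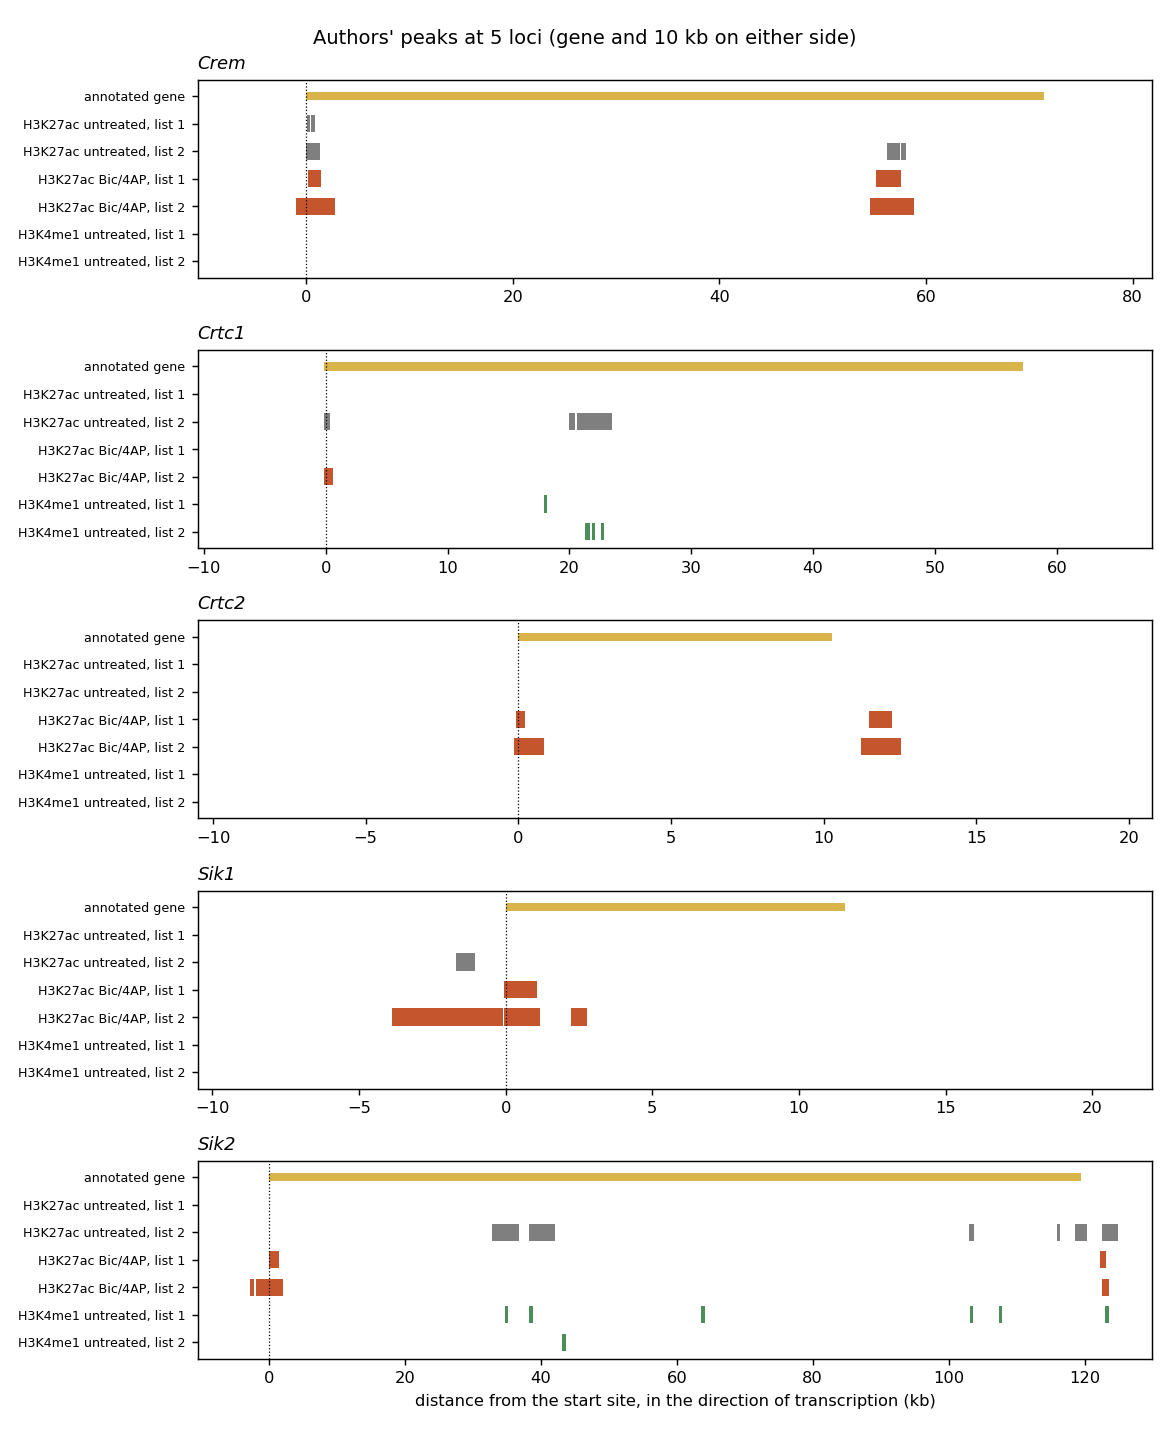
Authors' H3K27ac and H3K4me1 peaks at Crem, Crtc1, Crtc2, Sik1 and Sik2, as distance in kb from the start site in the direction of transcription; each row is a peak list, the gold bar is the annotated gene, and very short peaks are widened to stay visible. Start-site peaks at Crtc2, Sik1 and Sik2 are in Bic/4AP rows only, and Crem has a second region between 54.58 and 58.82 kb.

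CpG methylation was low at the start site and high over the rest of the gene at every member, in all 3 libraries. Within 1 kb of the start sites the mean over the 9 genes was 2.22% ± 1.86 with TTX, 2.36% ± 2.66 untreated and 2.17% ± 2.66 with Bic/4AP (SD over genes, not replicates). The median over 22329 promoters was 17.41% untreated. Crtc1 was the highest of the 9, at 6.98%, 9.14% and 9.06% with TTX, untreated and Bic/4AP, and Sik1 was the lowest with Bic/4AP, at 0.412%. On CpG sites present in all 3 libraries, promoter differences between Bic/4AP and untreated ran from -0.610 points at Sik3 to 0.463 points at Crtc2. The central 90% of all promoters, at every level of methylation, ran from -4.45 to 4.2 points. Apart from Crtc1, the members' untreated means on these sites were 3.13% (Crem) or less, so a fall of 4.45 points was not possible there. Lying inside that range was therefore nearly given and is no measure of stability. There is 1 library per treatment and no coverage in the files, so no test was made.

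Beyond 1 kb from the start, gene bodies were methylated at 73.6% (Crtc3) to 89.8% (Atf1) untreated. The internal Crem region was an exception inside its gene, whose body averaged 78.7% with TTX, 78.0% untreated and 77.5% with Bic/4AP. CpG sites in the Bic/4AP list 2 peak there averaged 25.5%, 20.3% and 22.7%. Those in the wider of the 2 untreated list 2 peaks averaged 7.32%, 4.12% and 9.004%. The other untreated list 2 peak held 1 CpG site, at 77.8%, 66.7% and 75.0%. The Crtc1 stretch with the untreated-only peak averaged 59.8%, 60.0% and 60.8%. The strongest of the untreated-only peaks in Sik2 averaged 77.2%, 70.6% and 74.2%, on 15, 14 and 19 CpG sites.

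**Figure D5:**
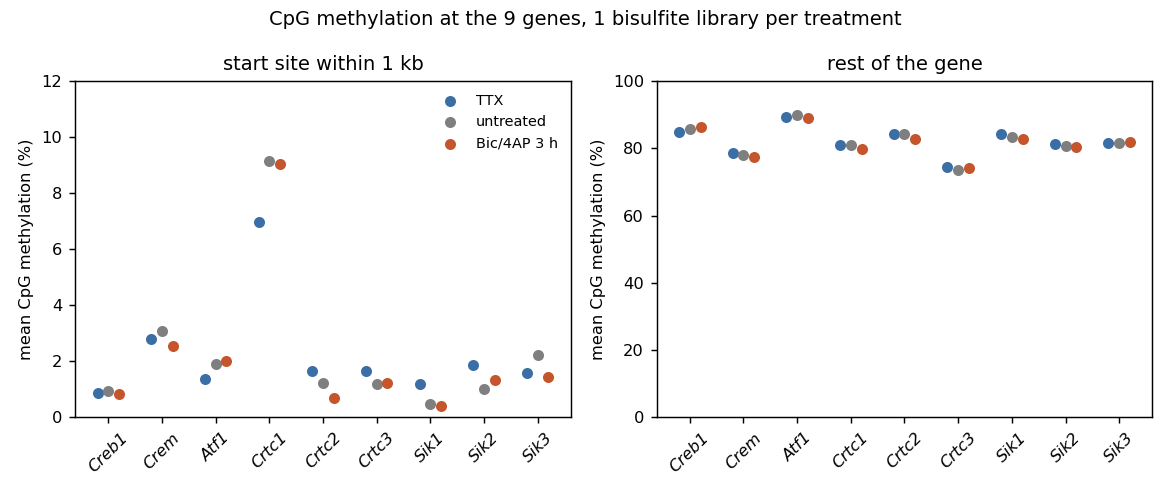
Mean CpG methylation in percent for each gene, left within 1 kb of the start site and right over the rest of the gene; each point is 1 bisulfite library, with no replicate. Points of the 3 treatments lie close together, below 10% on the left and above 70% on the right.

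The genes lie at chr1:64532794-64604548 (Creb1, plus strand), chr18:3266354-3337773 (Crem, minus), chr15:100227859-100261248 (Atf1, plus), chr8:70382352-70439702 (Crtc1, minus), chr3:90253858-90264125 (Crtc2, plus), chr7:80586627-80688948 (Crtc3, minus), chr17:31844248-31855804 (Sik1, minus), chr9:50889644-51009132 (Sik2, minus) and chr9:46012820-46224194 (Sik3, plus), in GRCm38. Annotated neighbours overlap Crem (Gm6225), Crtc3 (Gm15880 and Gm51450), Sik1 (Gm41564), Sik2 (Ppp2r1b) and Sik3 (Gm46110 and Pou5f1-rs9), and since no source used here says if reads were counted by strand, reads from overlapping genes cannot be told apart. For Crem, Crtc2 and Sik1 the start was taken as the annotated 5′ end of the gene. Slc39a1 is annotated close to the start of Crtc2 and Pafah1b2 close to that of Sik3.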

How the data were processed

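Expression, per the labels' protocols, came from poly(A)-selected RNA and a directional library kit; the deposited values are RPKM, 1 per gene and library, computed by the authors. The mm10 build, MACS 1.4.1, SAMtools 0.1.19, Bowtie2 2.2.4 and TopHat are named per the submitters' processing notes, without roles. The authors' peak lists, 1 per sample, give a score of 50 or more per peak. The deposited methylation values are a fraction per CpG without coverage, shown here as percent; their depth is unknown. The input sample was not used here. Reads were recovered from RPKM steps within 0.02 of a whole read, and counts of this kind were used only to describe depth; intervals on them would cover counting error only.

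limma 3.58.1 (R 4.3.3) with an intensity trend was fitted to log2(RPKM + 1) of all 9 libraries, for the 14801 genes that reached 1 RPKM in 3 libraries or more, with Benjamini-Hochberg adjustment over all of them. On this scale the changes of low genes are understated. The script was tested on simulated data with known changes. It recovered 93 of 100 genes with a log2 change of 1 and 53 of 100 with a change of 0.5, with 12 false calls. A gene not called here may therefore still have a change of 0.5 or less. Promoter peaks overlap the 1 kb on either side of the start site by at least 1 base. Of 24062 lines per file, 4 with a repeated gene name were left out.

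The members, gene lists and tests were chosen with earlier results of these data known. Named genes are the 9 members, up to 3 genes per direction and list with the smallest p among those called in Bic/4AP against untreated, and the 5 genes most correlated with Crem and with Sik1. Alternatives were another pseudocount, other filters, quantile and loess normalization, fits on 2 groups, a replicate block, each library left out, other peak windows, overlaps and scores, and other methylation summaries. RefSeq tables are of GRCm38.p6. Strands of Crem, Crtc2 and Sik1 are not in those tables and were set from general knowledge of the mouse genome.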

Additional observations from a re-analysis of the deposited data

How the results depend on the processing

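The counts of members called in Bic/4AP against untreated stayed within 1.5 times under every alternative run. The count called lower with TTX against untreated (2) was 1 with no filter on low values, in the fit on the 2 groups alone and in the fit with a replicate block, and 1 to 2 over the fits that leave out 1 library, where the call lost is that of Atf1. It was 4 under quantile and loess normalization, which kept Atf1 and Crtc2 and added Creb1 and Crtc3. The count called higher with TTX (4) was 2 under loess. The count called lower with Bic/4AP against TTX (4) was 1 under quantile and under loess. Against the deposited log2 differences, called values changed sign under quantile and loess normalization for Atf1 in Bic/4AP against untreated (-0.01 to 0.51 and 0.50), Creb1 in TTX against untreated (0.02 to -0.24 and -0.26), Creb1 in Bic/4AP against TTX (-0.30 to 0.17 and 0.20) and Crtc2 in Bic/4AP against TTX (-0.65 to 0.12 and 0.18), and under loess for Crtc3 in Bic/4AP against TTX (-0.78 to 0.056). Relative to the median gene, Atf1 (0.12) and both Creb1 values (-0.11 and 0.03) already had the rescaled sign. Sik2 in TTX against untreated, not called under any of the 3 scalings, went from 0.16 to -0.08 and -0.09. The cause was not tested. Without untreated library 2, Sik2 was called higher with TTX (limma, adjusted p = 0.00727). Promoters with a peak in both Bic/4AP lists and neither untreated list fell from 3 to 1 at a score of 100 or more. The median CpG value in place of the mean gave 0% at every member promoter, with TTX, untreated and with Bic/4AP alike. Libraries that share a number did not deviate together (r from -0.173 to 0.0435 over 9 pairs, and -0.129 to 0.208 over 18 pairs with different numbers), so the replicate block, which left 1 member called lower with TTX and ended the call of Atf1 against TTX (adjusted p = 0.0534), pairs nothing the labels name. Depth limits Crtc2 and Atf1 most, with 54 to 102 reads in the Bic/4AP libraries.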
